A study of Homo sapiens with 12 samples.

Results

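The 10 core autophagy genes described here are MAP1LC3B, GABARAPL1, GABARAPL2, SQSTM1, WIPI1, ULK1, BECN1, ATG5, ATG12 and VMP1, chosen by name out of 19775 genes that the arrays represent with a probe set of their own. Their mRNA was measured in HK-2, an immortalized human cell line from the epithelium of the proximal kidney tubule, which was grown with EGF, insulin, transferrin, selenite and hydrocortisone. The groups were cells given the treatment that the labels call Fk for 48 h, cells given its control vehicle for 48 h, cells given Fk for 12 h and cells given control vehicle for 12 h, with 3 arrays each, which the labels call biological replicates. Fk is not expanded in the labels, its dose was not used here, and all groups share the 1 cell line. The study's stated aim was to find expression signatures of toxicity, and the comparisons here ask what Fk did to these genes at each time and how the cultures differed between the times.

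Macroautophagy encloses cytoplasm in a double membrane, the autophagosome, and delivers it to the lysosome. ULK1, a kinase that nutrient sensors control, starts the process. BECN1 belongs to the lipid kinase complex that marks the site with phosphatidylinositol 3-phosphate, WIPI1 reads this lipid, and VMP1, a protein of the endoplasmic reticulum, moves lipids for the growing membrane. ATG12 is joined to ATG5, and this conjugate helps to attach proteins of the ATG8 family, here MAP1LC3B, GABARAPL1 and GABARAPL2, to the membrane. SQSTM1 (p62) binds ubiquitinated cargo and ATG8 proteins and is itself degraded with the cargo. Tubule cells of the kidney rely on autophagy to clear damaged mitochondria and proteins. The arrays measure mRNA and not the flux of cargo through the pathway.

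All 10 genes were measured above the level set for testing, which 10784 genes reached: 3 or more arrays with a log2 value of at least 4. They had 23 probe sets that carry their symbol alone, of which 20 reached this level, and the brightest of each gene stands for it below. The 3 that did not were 2 of SQSTM1 and 1 of BECN1. Values are log2 expression values, on which 1 unit is a doubling, and levels are not compared between genes because probe sets differ in brightness. Array medians ran from 2.85 to 2.94. The labelled cell type could be checked only in part: the epithelial and kidney genes CDH6, PAX8, KRT8 and KRT18 and the mesenchymal gene VIM averaged 10.9 or more, whereas LRP2, CUBN, AQP1, SLC34A1, SLC22A6 and ANPEP, genes of the differentiated proximal tubule, stayed under 4 on every array and GGT1 did not pass. Of 9 markers of other kidney and blood cells, 6 did not reach the level, while AQP2 (highest value 4.33), PECAM1 (4.59) and ACTA2 (7.23) did. One array, Fk_12h replicate 3, stood apart: 569 tested genes lay over 1 log2 unit above and 1091 as far below the mean of the other 2 arrays of its group, and its signal for a control probe set of large-subunit ribosomal RNA was 14.38, against 8.50 to 10.29 elsewhere. Several results that rest on this array are given with and without it, and others are given with it alone.

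Promoter sequence is shown for the pair of ATG8 genes that differed most between the times, because both genes are known targets of stress-responsive transcription factors. The 100 bases before the start site, from RefSeq (GRCh38.p14), are printed 5′ to 3′ on the + strand, chr16:87392236-87392335 for MAP1LC3B and chr12:10212777-10212876 for GABARAPL1, with motif matches in capitals.
MAP1LC3B: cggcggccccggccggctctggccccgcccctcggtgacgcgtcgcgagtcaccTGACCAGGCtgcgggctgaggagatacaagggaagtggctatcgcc
GABARAPL1: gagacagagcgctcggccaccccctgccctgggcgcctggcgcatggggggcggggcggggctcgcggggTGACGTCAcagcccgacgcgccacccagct
All 10 genes matched the promoter table, with 13 start sites because SQSTM1 has 3 and ATG5 has 2, and windows of 300 bases (250 before and 50 after the start) were searched on both strands. The antioxidant response element core TGACNNNGC was found in 1 of 13 windows, that of MAP1LC3B, and in 13.3% of 35116 RefSeq windows. It lies 46 to 38 bases before the start. The cAMP response element TGACGTCA, added to the search after the sequence had been seen, was found in the GABARAPL1 window alone, and in 1.85% of all windows. The E-box CACGTG (7.26% of all windows), the longer TCACGTGA that holds it (0.98%), which the lysosomal regulator TFEB binds, and the amino acid response element TGATGCAA (0.866%) had 0 matches in the 13. Both printed stretches are rich in G and C, at 73% for MAP1LC3B and 79% for GABARAPL1.

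No core autophagy gene passed the test between Fk and control cultures at either time. At 12 h, 0 of 10 had an adjusted p under 0.05, and 0% of all genes tested passed. At an unadjusted p under 0.05 it was 1 of 10, GABARAPL1, against 6.71% of all genes. At 48 h it was again 0 of 10 (0% of all genes), and at an unadjusted p under 0.05 it was 1 of 10, ULK1, against 5.18%. The median log2 difference of the members was 0.17 at 12 h and 0.04 at 48 h, against 0.01 and 0.02 over all genes tested, and 7 of 10 were positive at each time. In the median gene the 95% interval of a Fk difference reached 0.447 log2 units to either side.

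**Figure D1:**
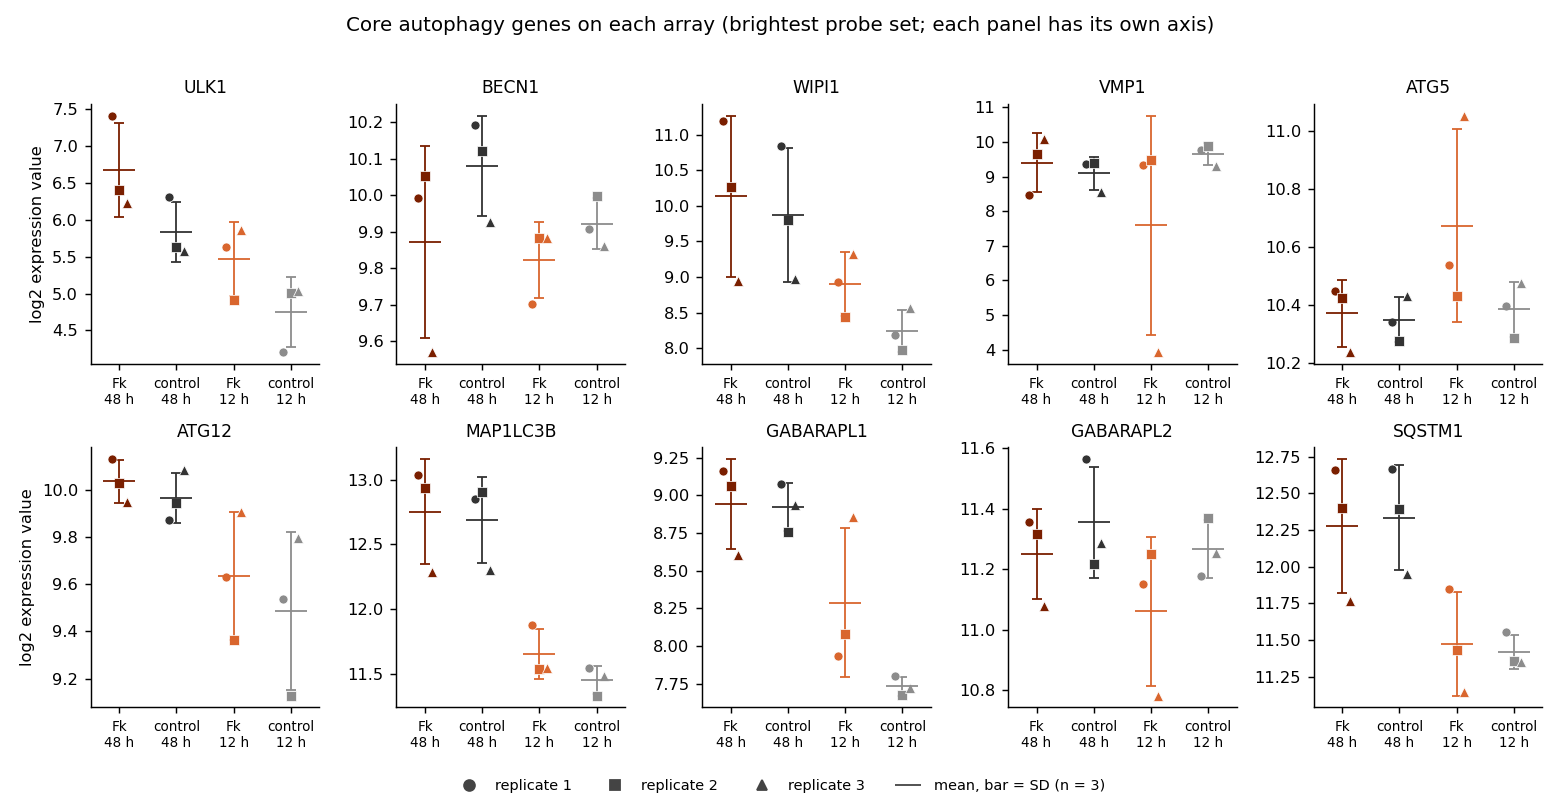
Log2 expression value (y axis, own scale in each panel) of the brightest probe set of each core autophagy gene on each of 12 arrays, by group (x axis), with points for arrays and a line and bar for the mean and SD of 3. MAP1LC3B and SQSTM1 are high on the 48 h arrays of both treatments, and VMP1 has a single low point, Fk_12h replicate 3 at 3.93.

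Among the genes that start the process, ULK1 had the largest positive Fk difference of the 10 members at each time. It measured 7.41, 6.40 and 6.23 in Fk cultures against 6.30, 5.64 and 5.57 in control cultures at 48 h, and 5.63, 4.91 and 5.86 in Fk cultures against 4.21, 5.00 and 5.04 in control cultures at 12 h. At both times the Fk and control ranges overlapped, at 48 h by the single control value of 6.30, which lay above the lowest Fk value of 6.23. The Fk difference was 0.84 (95% interval 0.01 to 1.67, adjusted p = 0.958) at 48 h and 0.72 (-0.11 to 1.55, adjusted p = 0.761) at 12 h. Without Fk_48h replicate 1 the 48 h value was 0.48, and without control_12h replicate 1 the 12 h value was 0.45. BECN1, the scaffold of the lipid kinase complex, stayed within a narrow band, with 9.99, 10.05 and 9.57 in Fk against 10.19, 10.12 and 9.93 in control cultures at 48 h, and 9.70, 9.88 and 9.88 in Fk against 9.91, 10.00 and 9.86 in control cultures at 12 h. Its Fk difference was -0.21 at 48 h and -0.10 at 12 h, with overlapping groups both times. Leaving out Fk_48h replicate 3 brought the 48 h value to -0.058, and leaving out Fk_12h replicate 1 the 12 h value to -0.040.

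WIPI1, the lipid reader, varied widely between replicates. At 48 h it measured 11.19, 10.27 and 8.94 in Fk cultures against 10.84, 9.80 and 8.97 in control cultures, and at 12 h 8.94, 8.44 and 9.33 in Fk cultures against 8.18, 7.98 and 8.56 in control cultures. Replicate 1 was the highest and replicate 3 the lowest of both groups at 48 h, so the spread within a group (SD 1.13 in Fk and 0.94 in control cultures) was far larger than the Fk difference of 0.26. Leaving out Fk_48h replicate 1 turned that difference to -0.27, and leaving out control_48h replicate 3 to -0.19. Each of these fits drops a replicate number from 1 group only, so the replicate order that both groups shared enters the values. At 12 h the Fk difference was 0.66 (-0.59 to 1.92, adjusted p = 0.823), and the second WIPI1 probe set gave the same value to 2 decimals.

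With the brightest probe sets, GABARAPL1 was the only member without overlap between Fk and control cultures at 12 h, where 9.91% of all genes were higher without overlap. It measured 7.93, 8.08 and 8.86 in Fk cultures at 12 h, against 7.80, 7.67 and 7.72 in control cultures. All Fk values lay above all control values, and Fk_12h replicate 3 lay far above the other two. The difference was 0.56 (0.04 to 1.07, 1.47-fold, adjusted p = 0.732), and 0.27 without Fk_12h replicate 3. The second GABARAPL1 probe set gave 0.63, with Fk_12h replicate 3 again the highest, at 8.58 against 8.01 and 7.76. At 48 h the groups overlapped, and the Fk effect at 48 h minus that at 12 h was -0.54 (-1.26 to 0.19, adjusted p = 0.996), or -0.25 without Fk_12h replicate 3. For this interaction 0 of 10 members passed, as did 0% of all genes, and 0 of 10 had an unadjusted p under 0.05, against 3.31% of all genes.

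The other genes of membrane attachment and cargo binding showed small Fk differences. MAP1LC3B differed by 0.20 at 12 h (-0.29 to 0.69, adjusted p = 0.873), a value that was 0.09 without Fk_12h replicate 1. GABARAPL2 measured 11.36, 11.32 and 11.08 in Fk against 11.56, 11.22 and 11.29 in control cultures at 48 h, and 11.15, 11.25 and 10.78 in Fk against 11.18, 11.37 and 11.26 in control cultures at 12 h. Its Fk difference was -0.11 at 48 h and -0.21 at 12 h, and -0.07 at 12 h without Fk_12h replicate 3. SQSTM1 differed by 0.05 at 12 h (-0.52 to 0.63), with either sign when single arrays were left out. ATG12 differed by 0.15 at 12 h (-0.26 to 0.55), also with either sign. At 48 h the Fk differences of MAP1LC3B, GABARAPL1, SQSTM1, ATG5 and ATG12 in their brightest probe sets all lay between -0.06 and 0.07. With the brightest probe sets, 0 of 10 members were free of overlap in either direction at 48 h, against 10.2% of all genes. The ATG12 probe set 204833_at was higher by 0.35 in Fk cultures at 48 h, without overlap, and 213930_at by 0.09 with overlap.

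ATG5 probe sets did not move alike. The brightest measured 10.54, 10.43 and 11.05 in Fk cultures at 12 h, against 10.40, 10.28 and 10.47 in control cultures, a difference of 0.29 (-0.06 to 0.64, adjusted p = 0.778), or 0.10 without Fk_12h replicate 3. Another ATG5 probe set, 202512_s_at, had its lowest value of all arrays, 5.52, on the same Fk_12h replicate 3, and its Fk difference at 12 h was -0.69. A further one, 210639_s_at, measured 9.51, 9.59 and 10.10 in Fk cultures at 12 h, against 9.40, 9.30 and 9.37 in control cultures. Its Fk difference was 0.38, without overlap. Fk_12h replicate 3 thus read high on the brightest and on 210639_s_at and low on 202512_s_at, and no direction is given for ATG5 at 12 h.

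**Figure D2:**
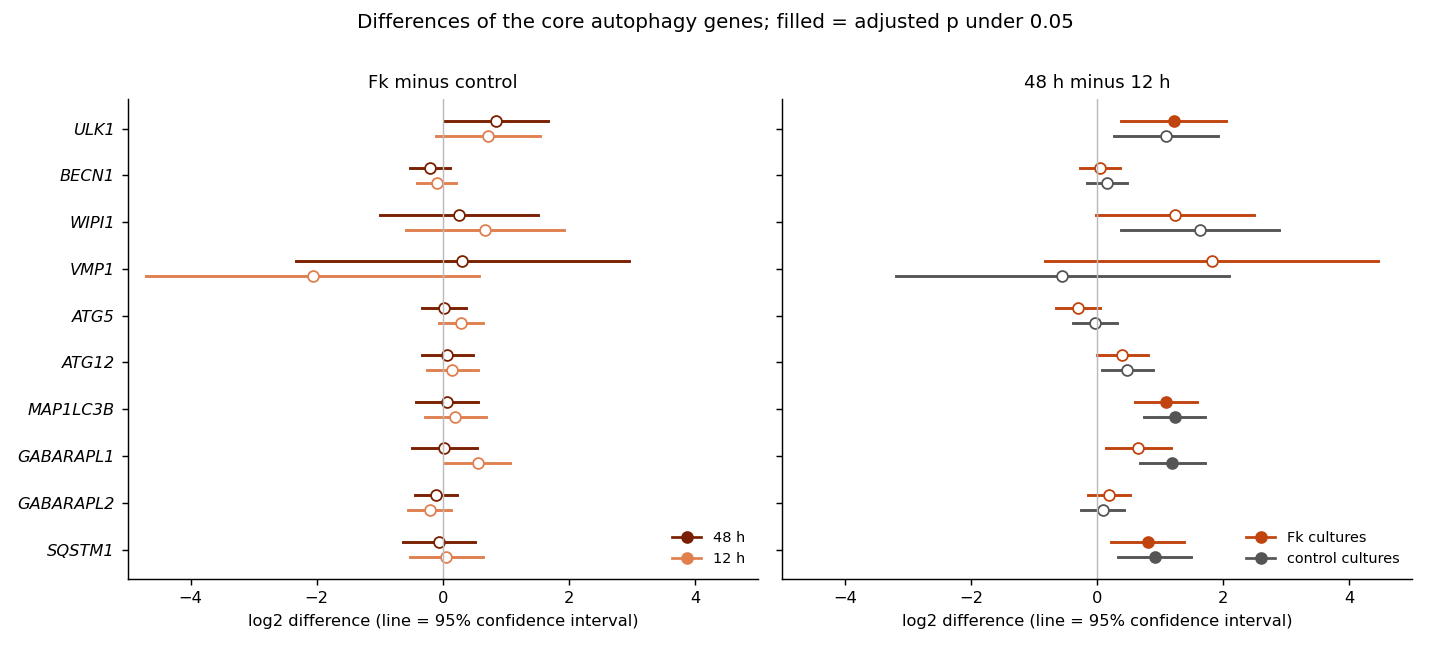
Log2 difference (x axis) of each core autophagy gene (y axis), Fk minus control at 48 h and 12 h on the left and 48 h minus 12 h in Fk and control cultures on the right. Lines are 95% confidence intervals of limma and filled points have an adjusted p under 0.05. No point is filled on the left, and 3 of each treatment are filled on the right.

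Between the times, 4 of the 10 genes passed the test in at least 1 treatment. In Fk cultures MAP1LC3B, SQSTM1 and ULK1 were higher at 48 h than at 12 h, 3 of 10 members called higher against 11.5% of all genes (23.2% were called in either direction). In control cultures MAP1LC3B, GABARAPL1 and SQSTM1 were higher at 48 h, again 3 of 10, against 10.6% called higher and 21.5% called in either direction. No member was called lower in either. The median difference of the members was 0.73 in Fk and 0.70 in control cultures, against 0.02 in Fk and 0.01 in control cultures over all genes tested. Higher without overlap at 48 h were 3 of the 10 in Fk cultures, MAP1LC3B, ULK1 and ATG12 (19% of all genes), and 6 in control cultures (25.1% of all genes), which were the called genes with WIPI1, ULK1 and ATG12. Time since seeding, time since treatment and cell density cannot be told apart in this design. The RNA came from whole cultures, so fewer cells of a kind and less RNA per cell cannot be told apart either.

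MAP1LC3B, which encodes the LC3 protein that coats autophagosomes, more than doubled. It measured 13.04, 12.93 and 12.29 in Fk cultures and 12.85, 12.90 and 12.30 in control cultures at 48 h, against 11.88, 11.54 and 11.55 in Fk cultures and 11.55, 11.34 and 11.49 in control cultures at 12 h. Every 48 h value lay above every 12 h value, and replicate 3 was the lowest at 48 h in both treatments. The rise was 1.09 ± 0.22 (SE, n = 3 per group, 2.13-fold, adjusted p = 0.00742 by limma) in Fk cultures and 1.23 ± 0.22 (2.35-fold, adjusted p = 0.00481) in control cultures. Leaving out single arrays kept both calls, with adjusted p up to 0.033 in Fk and 0.0251 in control cultures. The second MAP1LC3B probe set was higher by 0.70 in Fk and by 0.91 in control cultures.

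GABARAPL1, whose product acts in later steps of autophagosome maturation, measured 9.16, 9.06 and 8.61 in Fk cultures and 9.08, 8.75 and 8.94 in control cultures at 48 h, beside the 12 h values above. In Fk cultures the times overlapped through Fk_12h replicate 3, and the difference was 0.65 ± 0.23 (adjusted p = 0.0656). It was 0.94 without Fk_12h replicate 3 (adjusted p = 0.00509) and 0.82 without Fk_48h replicate 3 (adjusted p = 0.0354). In control cultures all 48 h values lay above all 12 h values, and the rise was 1.19 ± 0.23 (2.28-fold, adjusted p = 0.00712, at most 0.0321 when single arrays were left out). The second GABARAPL1 probe set was higher at 48 h by 0.72 in Fk and by 1.47 in control cultures, and its times overlapped in neither. In the limma fit of each gene's most variable probe set, this Fk difference had an adjusted p of 0.0351. A probe set annotated to GABARAPL1 and to the pseudogene GABARAPL3 was higher by 0.98 in Fk (adjusted p = 0.0491) and by 1.69 in control cultures (adjusted p = 0.00629) in a fit of every probe set, added after seeing the data.

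SQSTM1, the cargo receptor, measured 12.66, 12.40 and 11.77 in Fk cultures and 12.66, 12.39 and 11.95 in control cultures at 48 h, against 11.85, 11.43 and 11.15 in Fk cultures and 11.55, 11.36 and 11.35 in control cultures at 12 h. Replicate 3 was lowest in both treatments at 48 h and fell within the 12 h range only in Fk cultures. The rise was 0.80 ± 0.26 (1.74-fold, adjusted p = 0.0487) in Fk and 0.91 ± 0.26 (1.88-fold, adjusted p = 0.032) in control cultures. Both calls were close to the threshold. In Fk cultures the call ended without Fk_12h replicate 2 or 3, Fk_48h replicate 1 or 2, control_48h replicate 2 or any single control array at 12 h (differences of 0.61 to 0.80, adjusted p of 0.0673 to 0.171). In control cultures it ended without any single control array at 12 h or without control_48h replicate 1 or 2 (differences of 0.75 to 0.98, adjusted p of 0.0656 to 0.118). Of the other SQSTM1 probe sets that passed, 213112_s_at was higher by 1.07 in Fk and 1.13 in control cultures, and 244804_at by 0.29 in Fk and 0.16 in control cultures. With the mean of its probe sets SQSTM1 was higher by 0.44 in Fk (adjusted p = 0.0341) and by 0.43 in control cultures (adjusted p = 0.0407), and with no filter on dim genes neither call held (adjusted p = 0.107 in Fk and 0.0735 in control cultures).

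ULK1 was higher at 48 h by 1.21 ± 0.37 (2.32-fold, adjusted p = 0.0404) in Fk and by 1.09 ± 0.37 (2.13-fold, adjusted p = 0.0617) in control cultures, and in neither treatment did the times overlap. The Fk call ended without Fk_12h replicate 1 or 2, control_12h replicate 2 or 3, Fk_48h replicate 1 or 2 or control_48h replicate 2 (differences of 0.85 to 1.35, adjusted p of 0.0547 to 0.143). In control cultures the difference passed without Fk_12h replicate 3 (adjusted p = 0.0482) or Fk_48h replicate 1 (0.0355). In Fk cultures the WIPI1 difference was 1.23 (adjusted p = 0.139), 0.70 without Fk_48h replicate 1, and 1.83 (adjusted p = 0.028) without Fk_48h replicate 3. In control cultures it was 1.63 (0.38 to 2.89, 3.10-fold), the largest of the 10, without overlap, but its adjusted p was 0.0633 at an SD of 0.94 between the 48 h arrays. It passed there without Fk_48h replicate 1 or 3 or control_48h replicate 3 (adjusted p of 0.0284 to 0.0396).

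ATG12, the ubiquitin-like partner of ATG5, measured 10.13, 10.03 and 9.95 in Fk cultures and 9.87, 9.95 and 10.08 in control cultures at 48 h, against 9.63, 9.36 and 9.91 in Fk cultures and 9.54, 9.13 and 9.79 in control cultures at 12 h. All 48 h values lay above all 12 h values of the same treatment. The differences of 0.40 in Fk (adjusted p = 0.136) and 0.48 in control cultures (adjusted p = 0.0853) did not pass. Other settings called them: with the mean of a gene's probe sets the adjusted p was 0.0336 in Fk and 0.0368 in control cultures, with array weights it was 0.0157 in Fk and 0.0422 in control cultures, with a replicate block it was 0.0336 in Fk and 0.0192 in control cultures, and without Fk_12h replicate 3 it was 0.0492 in control cultures. The differences of the brightest probe set were 0.27 in Fk without Fk_12h replicate 2 and 0.30 in control without control_12h replicate 2. Another ATG12 probe set, 204833_at, was higher at 48 h by only 0.07 in Fk and 0.13 in control cultures, and its times overlapped in both. A further one, 213930_at, was higher by 0.89 in Fk and 0.74 in control cultures. BECN1 and GABARAPL2 differed by 0.05 to 0.19 in Fk cultures, and BECN1, GABARAPL2 and ATG5 by -0.04 to 0.16 in control cultures, and none passed. ATG5 differed by -0.30 in Fk cultures (adjusted p = 0.189), or by -0.11 without Fk_12h replicate 3. Its most variable probe set, 202512_s_at, gave 1.17 in the other direction (adjusted p = 0.047). In Fk cultures that probe set measured 7.56, 7.77 and 7.60 at 48 h against 6.95, 6.93 and 5.52 at 12 h, the last on Fk_12h replicate 3. The ATG5 probe set 210639_s_at differed by -0.41, as did the brightest in sign. No direction is given for ATG5 between the times in Fk cultures. The Fk effect at 48 h minus that at 12 h, which is also the difference between the time courses of Fk and control cultures, lay between -0.40 and 0.12 for the 8 members other than GABARAPL1 and VMP1, ULK1 among them.

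VMP1 was set by a single array at 12 h. Its only probe set with no other symbol measured 8.45, 9.66 and 10.09 in Fk cultures against 9.35, 9.38 and 8.55 in control cultures at 48 h, and 9.34, 9.49 and 3.93 in Fk cultures against 9.77, 9.88 and 9.29 in control cultures at 12 h. Fk_12h replicate 3 lay 5.49 log2 units below the mean of the other 2 Fk arrays, under the level set for testing, and the lowest of the other 11 arrays was at 8.45. The Fk difference at 12 h was -2.06 (-4.70 to 0.58, adjusted p = 0.789), and -0.23 without this array. At 48 h it was 0.31 (-2.34 to 2.95), with overlapping groups, 0.78 without Fk_48h replicate 1 and -0.038 without Fk_48h replicate 3. The interaction of 2.37 was 0.54 and the Fk time difference of 1.81 was -0.016 without Fk_12h replicate 3. In control cultures VMP1 differed by -0.55 between the times, or by -0.28 without control_48h replicate 3.

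The microRNA gene MIR21 lies inside the VMP1 interval of the RefSeq annotation (GRCh38.p14), near its end. Its transcript is known to start within VMP1 and to run in the same direction, and miR-21 is a microRNA known to be raised in injured kidney. Mature miR-21, at chr17:59841273-59841294 on the + strand, is printed with its seed (bases 2 to 8) in capitals, since the arrays cannot separate the 2 genes here.
hsa-miR-21-5p: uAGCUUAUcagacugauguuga
The arrays hold 3 probe sets annotated to both VMP1 and MIR21, and the annotation does not say which transcript they measured. They were tested in the same added fit of every probe set that reached the level. Probe set 224917_at measured 11.63, 12.04 and 12.42 in Fk cultures against 11.17, 10.97 and 11.23 in control cultures at 48 h, and 11.43, 11.42 and 4.36 in Fk cultures against 11.27, 11.36 and 11.75 in control cultures at 12 h. Probe set 231697_s_at measured 8.52, 8.66 and 9.42 in Fk cultures against 7.36, 7.37 and 7.82 in control cultures at 48 h, and 7.95, 8.43 and 4.54 in Fk cultures against 7.84, 7.77 and 8.02 in control cultures at 12 h.

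At 48 h all Fk values of both probe sets lay above all control values, as in 6.14% of the genes tested, by 0.91 (-2.36 to 4.18) for 224917_at and by 1.35 (-0.41 to 3.10) for 231697_s_at, each with an adjusted p of 1. The low value of Fk_12h replicate 3 widened these intervals, because the spread is shared over the groups. Without that array the same differences had intervals of 0.46 to 1.36 (adjusted p = 0.234) and 0.81 to 1.89 (adjusted p = 0.158), so neither passed. At 12 h the differences were -2.39 and -0.91, or -0.033 and 0.31 without it. The third, 220990_s_at, measured 11.25 on Fk_12h replicate 3, close to the other arrays, and at 48 h it was 11.47 ± 0.04 in Fk against 11.28 ± 0.09 in control cultures (SD, n = 3 each). So 3 of the 4 probe sets annotated to VMP1 were between 3.93 and 4.54 on that array and 1 was not low. The ribosomal RNA signal of that array is given above, and its part in these readings was not tested.

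**Figure D3:**
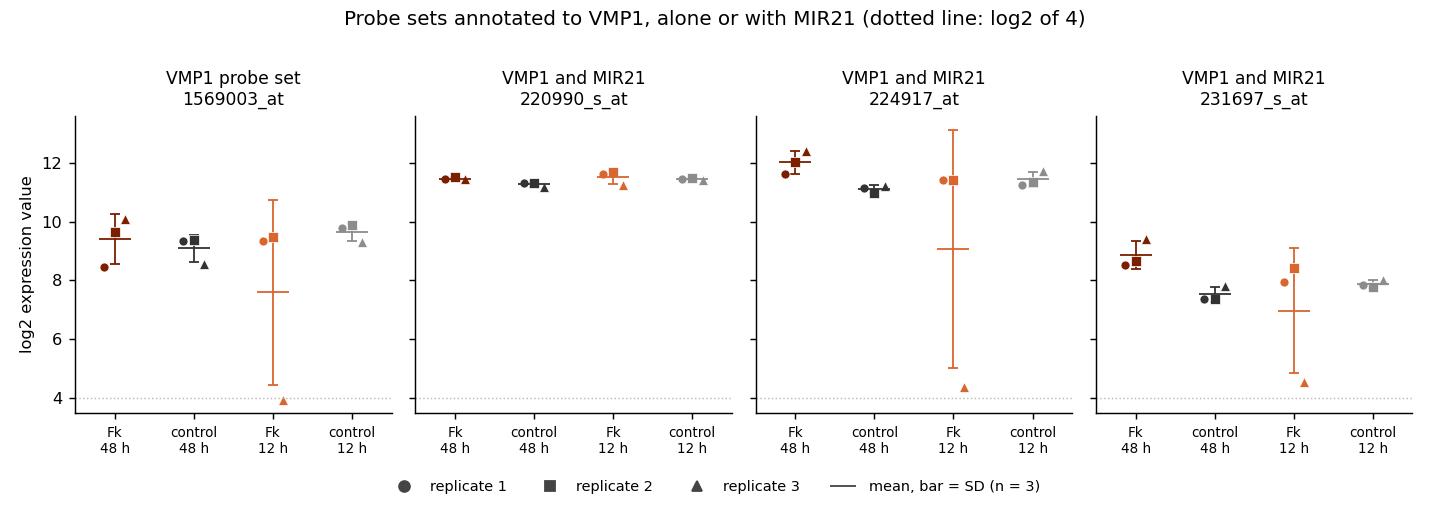
Log2 expression value (y axis) of the 4 probe sets annotated to VMP1, alone or with MIR21, by group (x axis), with points for arrays and a line and bar for the mean and SD of 3. Fk_12h replicate 3 is near 4 in 3 panels and at 11.25 in the other, and in the 3 shared probe sets the Fk arrays at 48 h lie above the control arrays.

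The rest of the pathway was taken from a list of 62 other autophagy genes ordered by role, of which 58 were tested. MAP1LC3A, MAP1LC3B2, MAP1LC3C and ZKSCAN3 did not reach the level. Between Fk and control, 0 of 58 passed at 12 h and 0 at 48 h, and 0 passed for the interaction. At an unadjusted p under 0.05 there were 3 at 12 h, where 6.71% of all genes had one: SESN2 (0.80, or 0.47 without Fk_12h replicate 3), TFE3 (0.33) and WDFY3 (0.48, but -0.22 with the mean of its probe sets). There were 3 at 48 h, where 5.18% of all genes had one: ATG9A (0.49, or 0.30 without control_48h replicate 2), TECPR1 (0.57) and TP53INP2 (-0.59, or -0.39 without Fk_48h replicate 3). A count of 3 of 58 is near these shares. Between the times, 12 of 58 rose and 1 fell in Fk cultures, and 13 rose and 1 fell in control cultures, against 11.5% of all genes called higher in Fk and 10.6% in control cultures. Over all the settings tried, the count in both directions ran from 2 to 30 in Fk and from 7 to 30 in control cultures, and the 2 came from a fit of the Fk arrays alone, which ended the Fk calls of RB1CC1, UVRAG, EPG5, TMEM41B, TAX1BP1, STX17 and SESN2. The median difference was 0.27 in Fk and 0.29 in control cultures. Counting both directions, the Fk count was 7 without Fk_48h replicate 1 and 8 without Fk_48h replicate 2. The control count was 8 without control_12h replicate 2, and 9 without control_12h replicate 1, control_12h replicate 3 or control_48h replicate 2.

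Of 12 receptor genes 4 rose in Fk cultures and 6 in control cultures, with no fall, and the shares of all genes called higher were 11.5% in Fk and 10.6% in control cultures. TAX1BP1, which links ubiquitinated cargo to ATG8 proteins, rose by 0.88 in Fk (adjusted p = 0.00745) and by 0.83 in control cultures (adjusted p = 0.0102). CCPG1, a receptor for endoplasmic reticulum, rose by 1.28 in control cultures (adjusted p = 0.0254), and the call ended without any single control array at 12 h or without control_48h replicate 1 or 2 (0.96 to 1.32). BNIP3, a mitophagy receptor, measured 12.02 ± 0.08 in Fk and 11.75 ± 0.22 in control cultures at 48 h, against 11.70 ± 0.15 in Fk and 11.50 ± 0.07 in control cultures at 12 h (SD, n = 3 each), and did not pass. GABARAP, the other ATG8 gene tested, differed by 0.31 in Fk cultures (adjusted p = 0.122) and rose by 0.63 in control cultures (adjusted p = 0.0103).

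In the ULK complex 1 of 4 genes rose in each treatment, RB1CC1, its large scaffold, by 0.84 in Fk (adjusted p = 0.0159, ended without Fk_48h replicate 1 or 2) and by 1.07 in control cultures (adjusted p = 0.00613). ATG101 of the same complex measured 9.99 ± 0.48 in Fk and 10.04 ± 0.46 in control cultures at 48 h. Of 7 genes of the lipid kinase complexes, UVRAG alone rose, by 0.88 in Fk and by 0.85 in control cultures, just inside the threshold (adjusted p = 0.0412 in Fk and 0.0498 in control cultures), and leaving out any of 10 of the 12 arrays ended either call. Without Fk_12h replicate 3 the UVRAG difference in Fk cultures was 1.265, and the call held. NRBF2 and PIK3R4 did not pass in either treatment. Of 9 genes of membrane supply 3 rose in Fk and 2 in control cultures. EPG5, a tether of autophagosome and lysosome, rose by 2.04 in Fk (adjusted p = 0.00668) and by 1.31 in control cultures (adjusted p = 0.0407, ended by leaving out any of 8 arrays). With the mean of its probe sets EPG5 was higher by 0.86 in Fk (adjusted p = 0.0202) and by 0.45 in control cultures, where it did not pass (adjusted p = 0.159). TMEM41B, a lipid scramblase like VMP1, rose by 1.26 in Fk (adjusted p = 0.0427, ended by leaving out any of 9 arrays) and differed by 1.21 in control cultures, which passed in 4 of the 12 fits without an array. Without Fk_12h replicate 3 the Fk differences were 1.53 for EPG5, where the call held, and 0.96 for TMEM41B (adjusted p = 0.108). WDR45B, a relative of WIPI1, measured 11.37 ± 0.17 in Fk and 11.40 ± 0.01 in control cultures at 48 h.

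Conjugation enzymes did not pass at all, 0 of 8 in either treatment. ATG3, which transfers ATG8 proteins to lipid, measured 12.64 ± 0.34 in Fk and 12.67 ± 0.35 in control cultures at 48 h, and ATG4B, which processes them, 9.60 ± 0.15 in Fk and 9.53 ± 0.04 in control cultures. VAMP8, a SNARE of autophagosome fusion, was the gene that fell, by 0.97 on the log2 scale in Fk (adjusted p = 0.00307) and by 0.73 in control cultures (adjusted p = 0.0107), and both calls held when single arrays were left out. Its partner STX17 rose by 0.88 in Fk cultures (adjusted p = 0.0425), a call that ended when any of 8 arrays was left out, and RAB7A did not pass. Without Fk_12h replicate 3 the STX17 difference was 0.61 (adjusted p = 0.101). Of 11 regulators 2 rose in each treatment. SESN2, a stress-induced inhibitor of the kinase mTORC1, rose by 1.35 in Fk (adjusted p = 0.0113) and by 2.22 in control cultures (adjusted p = 0.00154). DDIT4, another inhibitor of mTORC1 signalling, rose by 1.03 in Fk (adjusted p = 0.00215) and by 0.90 in control cultures (adjusted p = 0.00407). MITF, a transcription factor related to TFEB, did not pass.

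**Figure D4:**
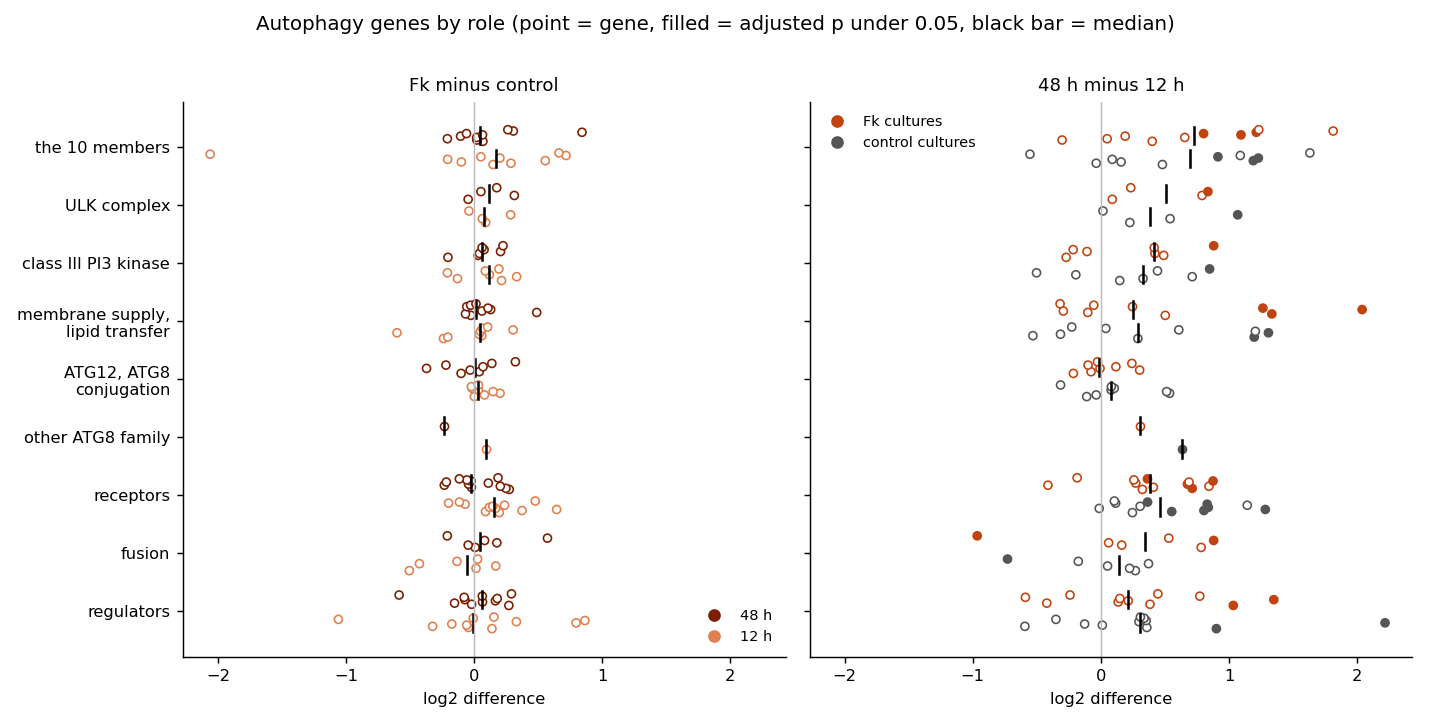
Log2 difference (x axis) of each tested autophagy gene by role (y axis), Fk minus control at 48 h and 12 h on the left and 48 h minus 12 h in Fk and control cultures on the right. Points are genes, filled where the adjusted p is under 0.05, and black bars are medians. No point is filled on the left, and on the right VAMP8 is the filled point below 0.

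The genes whose profiles over the 12 arrays were most like those of MAP1LC3B, GABARAPL1 and SQSTM1 were found by the smallest root mean square difference after each profile's mean was taken off. For MAP1LC3B these were LONP1, a mitochondrial protease (0.119 log2 units), NAGLU, a lysosomal hydrolase (0.133), and the non-coding gene GARS1-DT (0.134). For GABARAPL1 they were MANBA, another lysosomal hydrolase (0.144), HDAC11 (0.159) and PCCA (0.172). MANBA had a Fk difference of 0.61 at 12 h and a time difference of 1.21 in control cultures, which follow from its being picked by this likeness. For SQSTM1 they were DNAJC10 (0.128), PI4K2A (0.134) and ANXA1 (0.134). These distances compare with the members' own SD over the arrays of 0.63 for MAP1LC3B, 0.56 for GABARAPL1 and 0.51 for SQSTM1, and the profiles share the arrays and the time difference.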

How the data were processed

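Total RNA of 12 HK-2 cultures was hybridised to Affymetrix arrays as biotin cRNA, per the labels. The deposited values are GCRMA values on the log2 scale, per the submitters' processing notes and by their range. GCRMA adjusts for background by probe sequence, equalizes the arrays' distributions and gives 1 value per probe set. Neither its version nor the set of arrays normalized together is given in the sources used here. Of 54675 probe sets, 41097 carried 1 symbol, 1801 several and 11777 none in the platform annotation. A gene's brightest 1-symbol probe set was tested with limma 3.58.1 in R 4.3.3: group means over all 12 arrays, moderated by eBayes with 2.44 prior degrees of freedom beside 8 residual ones, and two-sided p-values adjusted by Benjamini-Hochberg over 10784 genes. Intervals are 95% confidence intervals. Precision is limited by the number of arrays.

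The members and lists were chosen with earlier results of these data known. Named in the wider pathway are the 2 brightest genes of each role and its largest called rise and fall in each time comparison. The genes at an unadjusted p under 0.05 were added after their values were seen. Likeness gives 3 genes per member. Same-numbered replicates were not taken as pairs in the reported fit, and a replicate block was among the alternatives. The protein sequences planned for the ATG8 genes were not used here. The fit was tested on 10 simulated sets with 200 genes changed in each. For Fk at 12 h it recovered 55% of changes of 1 log2 unit and 90.8% of changes of 2, with 6.6 false calls per set. For the control time comparison these were 55.9%, 90.7% and 8. In these sets many true changes of 1 log2 unit were thus missed. The simulated arrays varied independently of each other, and fewer genes were changed than the 2314 of 10784 called in the control time comparison. Recovery at such a share, or with arrays that vary together, was not tested. Another 26 ways of processing were tried, 12 of which left out 1 array, and a fit of every probe set, with and without Fk_12h replicate 3, was added after seeing the data, as was the motif TGACGTCA. Plots were drawn in Python 3.11.15 (matplotlib 3.10.9, pandas 2.3.3).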

Additional observations from a re-analysis of the deposited data

How the results depend on the processing

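Over 26 alternatives no member with a value was called between Fk and control at either time, nor over 25 for the interaction, which a fit of 2 groups cannot give. With array quality weights, which gave Fk_12h replicate 3 a weight of 0.121, 156 genes were called at 12 h and 94 at 48 h, and still 0 members. Between the times, the 3 members called in Fk cultures ranged from 1 to 5 when single arrays were left out, and the 3 in control cultures from 2 to 5. In Fk cultures the count was 1 with no filter on dim genes, with probe sets ending in s_at or x_at left out and with only the arrays compared; 5 with the mean or the most variable of a gene's probe sets; and 6 with array weights. In control cultures it was 0 without s_at and x_at probe sets, where MAP1LC3B, GABARAPL1, GABARAPL2, ATG5 and BECN1 have no probe set that reached the level, so that 5 members were tested; 5 with only the arrays compared, and 6 with array weights or an adjusted p under 0.10. Same-numbered deviations correlated at 0.041, 0.265 and 0.163 at 12 h and at 0.798, -0.025 and 0.606 at 48 h. At 12 h each Fk array correlated best with the control array of its own number. At 48 h this held for replicates 1 and 3 and not for replicate 2. Replicates 1 and 3 of opposite treatments correlated at -0.703 and -0.699 at 48 h. The sample titles do not say whether same-numbered cultures were paired. With a replicate block the members called were 5 in Fk and 6 in control cultures, with or without Fk_12h replicate 3, and 0 between Fk and control.

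The wider pathway count ran from 2 to 30 in Fk and from 7 to 30 in control cultures between the times, and from 0 to 1 between Fk and control at 48 h. Signs of the differences printed by gene turned as follows. ATG5 between Fk and control at 12 h was -0.0090 with the mean of its probe sets and -0.69 with the most variable, and between the times in Fk cultures 0.15 and 1.17, which passed (adjusted p = 0.047). ATG12 at 12 h was -0.056 with its most variable probe set, and -0.031 (without control_12h replicate 2) to 0.30 when single arrays were left out. SQSTM1 at 12 h then ran from -0.13 (without Fk_12h replicate 1) to 0.22. WIPI1 at 48 h ran from -0.27 (without Fk_48h replicate 1) to 0.86, with -0.19 when control_48h replicate 3 was left out. VMP1 at 48 h ran from -0.038 (without Fk_48h replicate 3) to 0.78, and its Fk time difference from -0.016 (without Fk_12h replicate 3) to 2.76. Without Fk_12h replicate 3, 231697_s_at at 12 h was 0.31. WDFY3 at 12 h was -0.22 with the mean and -0.81 with the most variable probe set. Differences given only as ranges, which lie near 0, turned too: at 48 h GABARAPL1 (7 settings), ATG5 and SQSTM1 (5 each) and MAP1LC3B (3); between the times BECN1 in Fk (3) and ATG5 (4) and GABARAPL2 (1) in control cultures; and for the interaction all 8 members other than GABARAPL1 and VMP1 (1 to 5 each). Where neither fewer arrays nor another probe set accounts for a change by construction, the cause was not tested. With 3 arrays a group, differences under about 0.447 log2 units were within the interval of the median gene.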
